A study of Mus musculus with 16 samples.

Results

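Rgl1, Rgl2 and Ralgds, exchange factors that switch on Ral GTPases, were followed with the GTPases Rala and Ralb and the adaptor genes Raph1 and Apbb1ip across RNA sequencing libraries of mouse B1b cells and whole aorta. These 7 genes were taken by symbol from a table of 24562 entries, 1 transcript kept for each gene, and all 7 passed the filter on low counts in every comparison. Rgl1 and Raph1 were chosen by their measured genotype difference in B1b cells, and the other members because they belong to the same families. Genotype values of the 7 genes in B1b cells, and the differences between tissues that hold those values, are therefore given as descriptions with no test.

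Ral proteins are small GTPases of the Ras superfamily that act on vesicle traffic, the cytoskeleton and cell migration. Active Ras binds the exchange factors Ralgds, Rgl1, Rgl2 and Rgl3, which load Ral with GTP, and Ral then engages effectors such as the exocyst, a complex that tethers secretory vesicles. Raph1 encodes lamellipodin and Apbb1ip encodes RIAM, related adaptors that bind Ras-family GTPases and recruit Ena/VASP proteins, which lengthen actin filaments at the leading edge. RIAM also carries talin to integrins downstream of Rap1 and is best known from leukocytes.

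All 16 libraries came from mice of the ApoE-/- strain, which lack apolipoprotein E and develop atherosclerosis. Groups were 3 wild-type (wt) and 3 cre libraries of B1b cells sorted from peritoneal lavage, and 5 wt and 5 cre libraries of frozen whole aorta. The study's design equates cre with deficiency of CD40, a costimulatory receptor, in B cells only. No Cre driver, age or sex is named in the labels, and they do not tell whether libraries stem from separate animals. The p-values reflect only how these libraries vary, which may be technical.

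Libraries of B1b cells held 6815829 to 9911226 counts and aortas 1645926 to 7300894, with wt aorta replicate 5 and cre aorta replicate 2 under 2000000. Cd40 itself stood at 39.2, 34.4 and 37.6 CPM (read counts scaled to a common library size) in wt B1b cells and at 30.7, 29.5 and 38.4 in cre, which overlap (log2 fold change -0.16, edgeR adjusted p = 0.679). In aortas Cd40 ran from 4.76 to 11.9 CPM in wt and from 1.81 to 8.49 in cre (log2 fold change -0.35, edgeR adjusted p = 0.711). The altered stretch of Cd40 is not described in the labels, so its transcript count did not check them, and cre is used below as the label gives it. In B1b libraries the 10 B cell markers summed to at least 9651.3 CPM and 8 smooth muscle markers to 14.6 to 22.3. In aortas the smooth muscle markers summed to 9260.3 to 24534.7 CPM. Aortic heart muscle markers ranged from 611.6 to 6960.4 CPM, with 0 of 8 past the threshold between genotypes.

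Among the exchange factors, Rgl1 was the member whose level was lower in cre B1b cells by the largest factor. The gene lies on chromosome 1 from 152516760 to 152766351 on the minus strand (GRCm38). The transcript used for its length has 18 exons and 4572 bases, and is not the transcript whose counts were kept. Its 4 annotated transcripts had nearly equal counts in the table, the lowest total being 97.4% of the highest. Such counts do not tell the transcripts apart and are no measure of how much of each was present. No exonic base of any of the 7 genes is shared with another annotated gene. Of the 2 promoter windows that RefSeq gives for Rgl1, the upstream one is shown because Rgl1 carried the lower level in cre B1b cells. It covers the 250 bases before the start at chr1:152766306-152766555, minus strand, RefSeq on GRCm38.p6, with capitals for matches to the GC box GGGCGG and the E box CACGTG on either strand.
Rgl1: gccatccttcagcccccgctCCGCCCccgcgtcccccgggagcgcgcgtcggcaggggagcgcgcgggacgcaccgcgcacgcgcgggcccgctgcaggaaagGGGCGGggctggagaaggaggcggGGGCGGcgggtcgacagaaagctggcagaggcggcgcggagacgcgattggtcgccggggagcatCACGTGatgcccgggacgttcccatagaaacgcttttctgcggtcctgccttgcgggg
It holds 3 GC boxes and 1 E box, and the other Rgl1 window, with 19 CpG dinucleotides and 59.3% G and C, holds neither motif. Over 32851 mouse promoter windows of 300 bases, 35.7% hold a GC box and 7.15% an E box. The NF-kB motif (GGG, any 2 bases, then TTTCC), the AP-1 motif (TGA, any base, then TCA) and the TATA box TATAAA, found in 1.63%, 7.81% and 13.6% of those windows, had no match on either strand in the 300-base windows of the 7 genes.

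In wt B1b cells Rgl1 stood at 17.6, 12.5 and 13.4 CPM, and in cre at 7.24, 5.3 and 6.2 CPM. Every cre value lay below every wt value, in libraries that held 37 to 131 reads of the gene. The log2 fold change was -1.20 (SE 0.24, 95% interval from -1.70 to -0.71), or 2.3-fold lower. In wt aortas the levels were 53.9, 53.4, 61.2, 65.2 and 53.4 CPM, and in cre aortas 74.4, 59.6, 62.6, 74.4 and 85 CPM. Those groups overlapped, with cre higher on average, and the log2 fold change of 0.31 (SE 0.13, 95% interval from 0.03 to 0.59) did not pass (edgeR adjusted p = 0.351). The genotype difference in B1b cells minus that in aorta was -1.52 (SE 0.23, 95% interval from -2.01 to -1.03) on the log2 scale. Rgl1 was lower in B1b cells than in aorta in wt by 3.98-fold (log2 fold change -1.99, edgeR adjusted p = 3.76e-09) and in cre by 11.4-fold (log2 fold change -3.51, edgeR adjusted p = 4.12e-12). Order of the group means ran from cre B1b cells to wt B1b cells, wt aorta and cre aorta, and the last 2 overlapped.

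Rgl2, on chromosome 17 from 33929543 to 33937687, stood at 79 ± 5.55 CPM in wt and 62.3 ± 9.63 CPM in cre B1b cells (SD, n = 3 each). Its B1b groups did not overlap, with a log2 fold change of -0.34 (SE 0.11, 95% interval from -0.56 to -0.11). In aortas it was the most scattered member, at 64 to 154.9 CPM in wt and 65.5 to 148.1 CPM in cre, and its log2 fold change of -0.05 (95% interval from -0.61 to 0.52) did not pass (edgeR adjusted p = 0.955) and its sign turned in 5 of the 10 fits on 1 library fewer, those without wt replicate 1 or 3 or cre replicate 3, 4 or 5. Ralgds, on chromosome 2 from 28513125 to 28553081, stood at 147.8 ± 29.8 CPM in wt and 120.4 ± 13.6 CPM in cre B1b cells (SD, n = 3 each), which overlap. Its log2 fold changes were -0.29 (95% interval from -0.56 to -0.02) in B1b cells and 0.34 (95% interval from -0.03 to 0.70) in aorta, where it did not pass (edgeR adjusted p = 0.43). These 3 exchange factors stood lower on average in cre B1b cells, and Rgl1, chosen by this contrast, had the largest difference. The other exchange factors did not share this. Rgl3 stood at 1.06 (95% interval from -0.14 to 2.26), Ralgps1 at 0.08 and Ralgps2 at -0.02.

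Per kilobase of transcript, the exchange factors ranked differently in the tissues. Ralgds was the highest in wt B1b cells at 41.2 ± 8.31 CPM per kb, then Rgl2 at 24.3 ± 1.71 and Rgl1 at 3.17 ± 0.593 (SD, n = 3). In wt aortas Rgl2 stood at 33 ± 10.4 CPM per kb, Ralgds at 15.1 ± 2.66 and Rgl1 at 12.6 ± 1.2 (SD, n = 5). The ratio of Rgl1 to Ralgds per kb was 0.0793 ± 0.0214 in wt and 0.0406 ± 0.0021 in cre B1b cells (SD, n = 3 each), with no overlap. In aortas the ratio was 0.845 ± 0.102 in wt and 0.839 ± 0.112 in cre (SD, n = 5 each), which overlap. Ralgds was 2.73-fold higher in wt B1b cells than in wt aorta (log2 fold change 1.45, edgeR adjusted p = 7.23e-07) and 1.76-fold higher in cre (log2 fold change 0.81, edgeR adjusted p = 0.000484). Rgl2 was lower in B1b cells in cre (log2 fold change -0.74, edgeR adjusted p = 0.0184), a call that ended without cre B1b replicate 2 or 3 or without cre aorta replicate 1 (edgeR adjusted p = 0.0761, 0.054 and 0.0509). It did not pass in wt (-0.45, edgeR adjusted p = 0.131), except without wt aorta replicate 5 (edgeR adjusted p = 0.0404), without the 2 aortas under 2000000 counts (edgeR adjusted p = 0.0205), with RLE scaling (edgeR adjusted p = 0.0438) or with DESeq2 (adjusted p = 0.0364).

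Of the GTPases themselves, Ralb differed between tissues and Rala did not pass there. Rala, on chromosome 13 from 17880571 to 17944239, stood at 65.7, 61 and 61.8 CPM in wt and 72.1, 71.8 and 75.4 CPM in cre B1b cells. Each cre value lay above each wt value, with a log2 fold change of 0.23 (SE 0.10, 95% interval from 0.03 to 0.43). In aortas Rala ran from 49 to 58.8 CPM in wt and from 45.8 to 75.1 CPM in cre (log2 fold change 0.17, edgeR adjusted p = 0.642). Ralb, on chromosome 1 from 119470305 to 119504794, stood at 11, 12.6 and 14.9 CPM in wt and 11.2, 17.5 and 11.4 CPM in cre B1b cells, which overlap (log2 fold change 0.06, 95% interval from -0.40 to 0.52). In aortas it ran from 59.1 to 75.3 CPM in wt and from 66.2 to 87.4 CPM in cre (log2 fold change 0.18, edgeR adjusted p = 0.557).

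Ralb was 5.17-fold lower in wt B1b cells than in wt aorta (log2 fold change -2.37, edgeR adjusted p = 6.84e-10) and 5.67-fold lower in cre (-2.50, edgeR adjusted p = 3.15e-10). Rala did not pass in wt (0.25, 95% interval from -0.03 to 0.54, edgeR adjusted p = 0.105) or in cre (0.30, edgeR adjusted p = 0.055). The cre value passed without wt B1b replicate 2 or 3 (edgeR adjusted p = 0.0369 each) or cre aorta replicate 4 (edgeR adjusted p = 0.00963). Per kb, Rala exceeded Ralb in B1b cells by 4.25 ± 0.785 in wt and 4.87 ± 1.19 in cre (SD, n = 3 each). In aortas the same ratio was 0.681 ± 0.0885 in wt and 0.673 ± 0.155 in cre (SD, n = 5 each), so Ralb was the more abundant per kb there. No B1b ratio lay within the aortic range.

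Raph1 was higher in cre B1b cells and lower on average in cre aortas. It lies on chromosome 1 from 60482292 to 60567104 on the minus strand, with 14 exons and a transcript of 10024 bases. Its promoter is printed as that of the gene with the higher level in cre B1b cells, the 250 bases before the start at chr1:60566766-60567015, minus strand, RefSeq on GRCm38.p6, with GC box matches in capitals.
Raph1: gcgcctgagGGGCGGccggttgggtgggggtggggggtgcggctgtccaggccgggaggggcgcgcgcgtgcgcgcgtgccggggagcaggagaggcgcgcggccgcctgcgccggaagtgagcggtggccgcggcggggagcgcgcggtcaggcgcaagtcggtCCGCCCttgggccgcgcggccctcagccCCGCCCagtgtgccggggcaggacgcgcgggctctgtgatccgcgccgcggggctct
It holds 3 GC boxes before the start and no E box. Its 300-base window has 49 CpG dinucleotides and 81.7% G and C, and the Rgl1 window shown has 39 and 73.3%, against medians of 7 and 52.7% over all promoter windows.

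Raph1 stood at 16.8, 23.1 and 19.7 CPM in wt B1b cells and at 38.1, 33 and 35.6 CPM in cre. All 3 cre values exceeded all wt values, a log2 fold change of 0.85 (SE 0.15, 95% interval from 0.53 to 1.16), or 1.8-fold. In aortas it stood at 120.7, 123.3, 133.3, 127.6 and 147.5 CPM in wt and at 102.3, 101.2, 77.8, 84.3 and 107.7 CPM in cre. Every cre aorta lay below every wt aorta, a separation that 1.26% of all genes tested showed in that direction and 2.88% in either. The log2 fold change was -0.46 (SE 0.13, 95% interval from -0.74 to -0.19), with an unadjusted p of 0.00281 in edgeR. It did not pass after adjustment in edgeR (adjusted p = 0.217), which called 2 genes in aorta. It did pass in DESeq2 (adjusted p = 0.0467), which called 204. The genotype difference in B1b cells minus that in aorta was 1.30 (SE 0.20, 95% interval from 0.89 to 1.71). Raph1 was lower in B1b cells than in aorta in wt by 6.56-fold (log2 fold change -2.71, edgeR adjusted p = 9.61e-12) and in cre by 2.66-fold (-1.41, edgeR adjusted p = 4.09e-08). None of the 4 groups overlapped any of its neighbours in the order of means, from wt B1b cells through cre B1b cells and cre aorta to wt aorta.

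Apbb1ip, on chromosome 2 from 22774094 to 22875653, had the highest level per kb of the 7 genes in B1b cells, 153.3 ± 15.6 CPM per kb in wt and 170.9 ± 19.5 in cre (SD, n = 3 each). In CPM it stood at 392.5, 473.9 and 408.5 CPM in wt and 532.3, 463.3 and 425.9 CPM in cre, which overlap (log2 fold change 0.16, 95% interval from -0.02 to 0.35). In aortas it ran from 33.8 to 59.9 CPM in wt and from 32.6 to 61 CPM in cre (log2 fold change -0.22, edgeR adjusted p = 0.684). It was 8.79-fold higher in wt B1b cells than in wt aorta (log2 fold change 3.14, edgeR adjusted p = 6.89e-11) and 11.4-fold higher in cre (3.51, edgeR adjusted p = 1.61e-11). The ratio of Apbb1ip to Raph1 per kb was 78 ± 5.79 in wt and 48.2 ± 4.27 in cre B1b cells (SD, n = 3 each), with no overlap. In aortas it was 1.35 ± 0.386 in wt and 1.56 ± 0.294 in cre (SD, n = 5 each), which overlap. It was 0.829 in wt aorta replicate 5, where Raph1 was the higher.

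**Figure D1:**
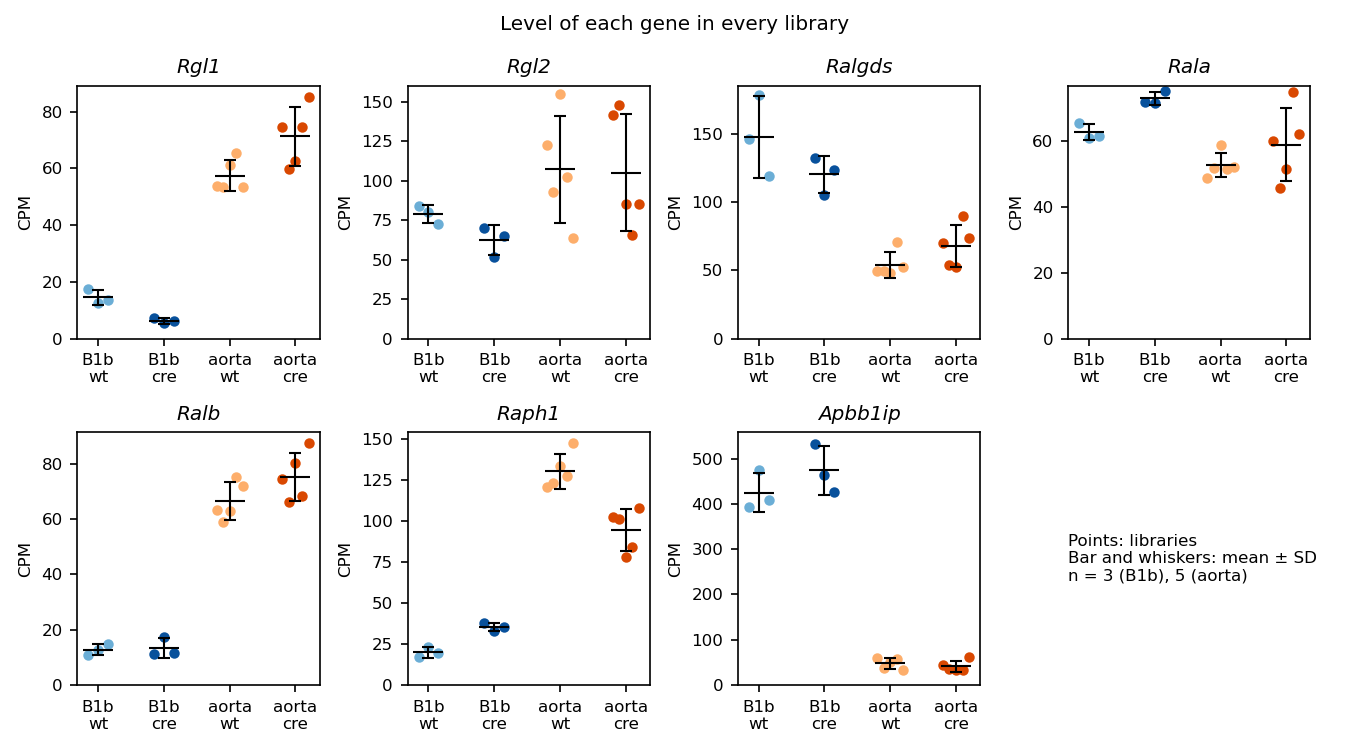
Levels of the 7 genes in CPM in each library, with points for libraries and marks for the group mean ± SD, in wt and cre B1b cells (n = 3 each) and wt and cre aortas (n = 5 each). Raph1 runs from 16.8 to 23.1 CPM in wt B1b cells and from 33 to 38.1 CPM in cre, while in aortas its wt values, from 120.7 CPM, all exceed its cre values.

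**Figure D2:**
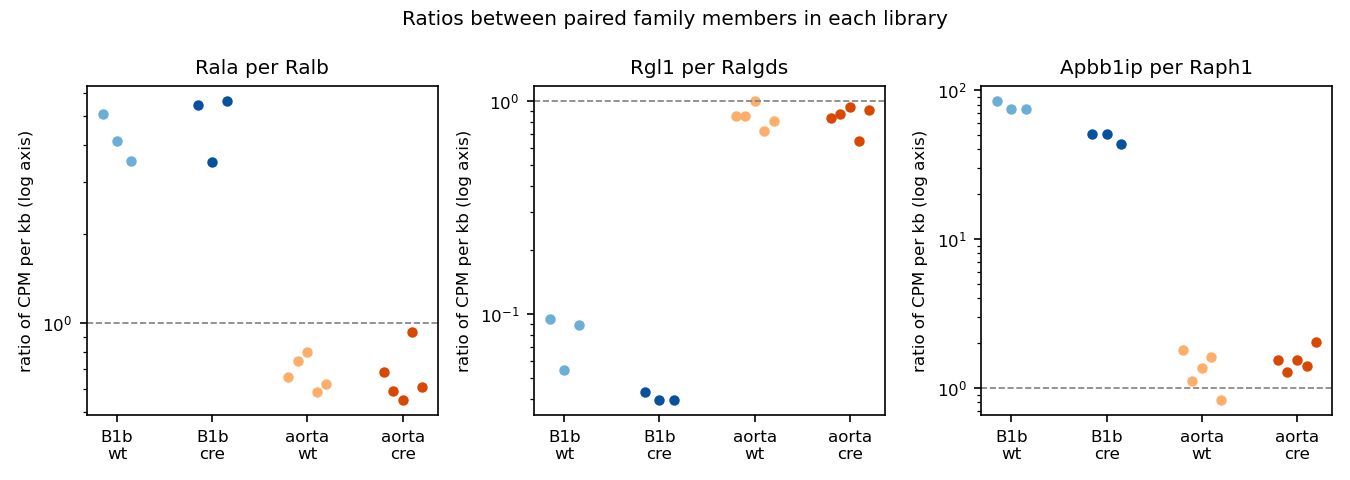
Ratios per kilobase in each library on a log axis, for Rala to Ralb, Rgl1 to Ralgds and Apbb1ip to Raph1. The mean ratio of Rala to Ralb is 4.25 in wt B1b cells and 0.681 in wt aortas.

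Genotype differences of the 7 genes, side by side, spanned -1.20 to 0.85 in B1b cells with a median of 0.06, where the median of all genes was -0.00. In aortas they ran from -0.46 to 0.34 with a median of 0.17, against 0.00 for all genes. By the threshold used for all genes, an edgeR quasi-likelihood p under 0.05 after Benjamini-Hochberg adjustment, 2 of the 7 passed in B1b cells, where 0.707% of all genes did. Those 2 were Rgl1 and Raph1, and the same 2 passed for the difference between tissues, where 0.0199% of all genes did. Both counts rest on the contrast that chose these 2 genes. They are descriptions, and cannot be weighed against the shares of all genes. Over all alternative settings, the log2 fold change in B1b cells spanned -1.30 to -1.03 for Rgl1 and 0.75 to 0.98 for Raph1. The calls were less stable than these sizes. In B1b cells the call of Rgl1 ended in 3 of 6 fits on 1 library fewer, and that of Raph1 in 1 of 6. Both also ended in the fit of all 16 libraries. For the difference between tissues, the call of Rgl1 ended in 8 of 16 such fits and with limma-voom. That of Raph1 ended there in 5 of 16. In B1b cells 4 of 7 had groups that did not overlap, as did 17.9% of all genes. That count includes Rgl1 and Raph1, so it too is a description that cannot be weighed against the share. In aortas 0 of 7 passed (0.015% of all genes did), and 2 of 7 had an unadjusted p under 0.05 in edgeR (12.6% of all genes did). DESeq2 called 1 of the 7, and 204 of the 13364 genes tested in aorta.

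**Figure D3:**
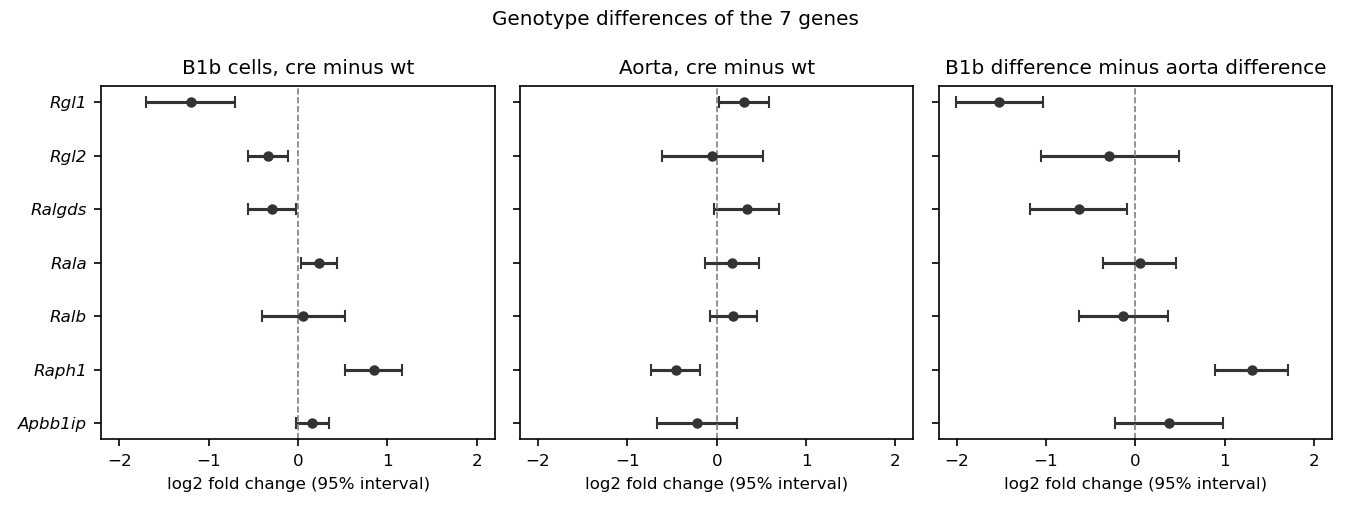
Log2 fold change of cre against wt with its 95% interval for each of the 7 genes, in B1b cells, in aorta, and as the difference between the tissues. Rgl1 lies at -1.20 in B1b cells and 0.31 in aorta, and Raph1 at 0.85 and -0.46.

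Between tissues, 5 of 7 members passed in wt, 2 higher and 3 lower in B1b cells, where 72.1% of all genes passed, 33.4% higher and 38.7% lower. In cre 6 of 7 passed, 2 higher and 4 lower, where 75.1% of all genes passed, 32.8% higher and 42.3% lower. Groups did not overlap for 6 of 7 in wt (70.4% of all genes) and 5 of 7 in cre (69.1%). Those counts lie near the background and are no result about these genes. Median log2 fold changes of the members were -0.45 in wt and -0.74 in cre, against -0.12 and -0.21 for all genes.

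Partner genes of the pathway did not pass in either genotype comparison. Of 78 listed genes, 0 of 72 tested in B1b cells passed and 0 of 75 tested in aorta passed (edgeR), and medians were -0.00 and -0.07. At an unadjusted p under 0.05 stood 14 of 72 in B1b cells, where 13.3% of all genes did, and 5 of 75 in aorta, where 12.6% did. In B1b cells Rap1a, a GTPase that acts through RIAM on integrins, came closest, at 98.2 ± 5.69 CPM in wt and 128.1 ± 8.94 in cre (SD, n = 3 each, log2 fold change 0.39, edgeR adjusted p = 0.0537). Sipa1l2, of a family of Rap GTPase activating proteins, stood at -0.54 (edgeR adjusted p = 0.114) and Vasp, an Ena/VASP protein, at -0.26 (edgeR adjusted p = 0.199). Reps2, of the list of Ral effectors and exocyst subunits, had the lowest value at -0.80, and Rgl3, an exchange factor with 1.43 ± 0.74 CPM in wt and 2.95 ± 1.47 CPM in cre (SD, n = 3 each), the highest at 1.06 (95% interval from -0.14 to 2.26, edgeR adjusted p = 0.45).

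By role, the 3 other Ral exchange factors had a median of 0.08 in B1b cells and -0.12 in aorta, and the 3 genes of the Ral GTPase activating complexes 0.03 and -0.21. Ral effectors and exocyst subunits had medians of -0.05 over 14 genes in B1b cells and -0.08 over 15 in aorta. Exoc5, a subunit of the exocyst, stood at 0.26 in B1b cells (edgeR adjusted p = 0.247), and Pld1, a phospholipase that Ral binds, at -0.42 in aorta (edgeR adjusted p = 0.383). Rap GTPases and their regulators had medians of -0.06 and -0.10 over 19 genes, integrin activation genes 0.05 over 9 and -0.16 over 10, and Ena/VASP and lamellipodial actin genes 0.01 over 18 and -0.03 over 19. In aorta Enah, an Ena/VASP protein, stood at -0.41 (edgeR adjusted p = 0.318), Hras at 0.40 (edgeR adjusted p = 0.312), and Rap1gap, which turns off Rap1, at 1.03 (edgeR adjusted p = 0.318).

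**Figure D4:**
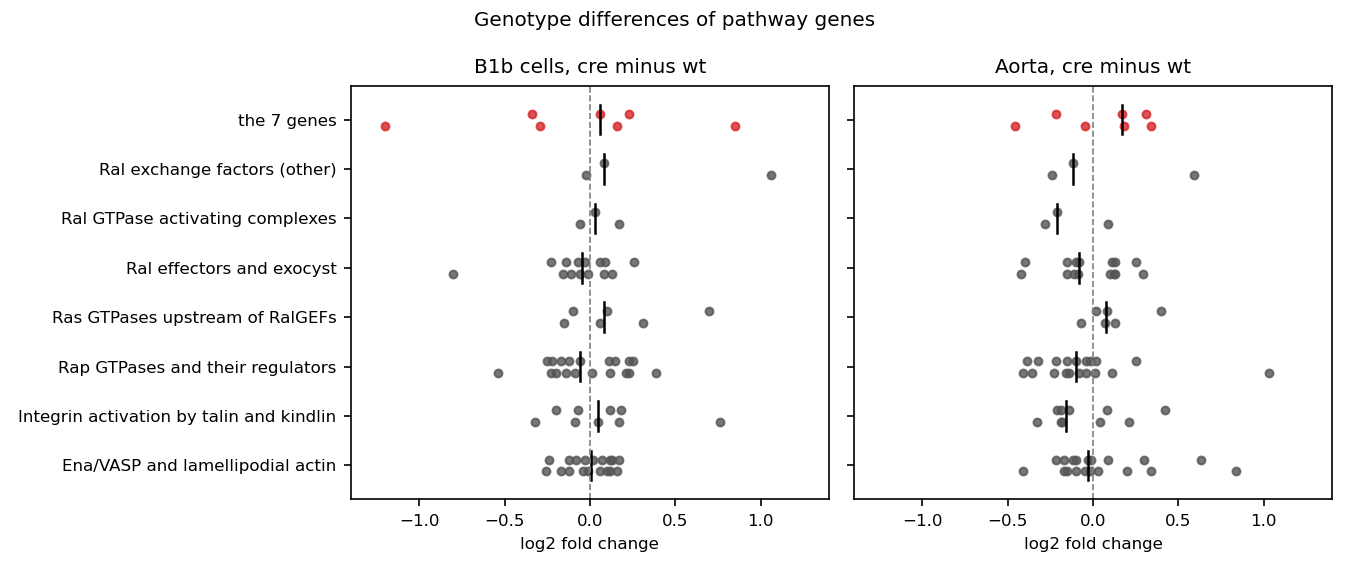
Log2 fold change of cre against wt for each tested gene of the pathway lists and for the 7 genes, in B1b cells and aorta, with black lines for medians. Pathway genes span -0.80 to 1.06 in B1b cells and -0.42 to 1.03 in aortas.

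Between tissues, 43 of 77 pathway genes tested were higher and 23 lower in wt B1b cells than in wt aorta (edgeR), where 33.4% and 38.7% of all genes were. The median was 0.50, against -0.12 for all genes. Ralgps2, a Ral exchange factor that does not need Ras, stood at 504.1 ± 46.3 CPM in wt B1b cells (SD, n = 3) and 6.54 ± 1.71 in wt aorta (SD, n = 5), or 6.31 on the log2 scale (edgeR adjusted p = 2.5e-13), while Rgl3 was lower in B1b cells at -3.44 (edgeR adjusted p = 8.11e-07). Of 11 integrin activation genes tested, 5 were higher and 5 lower in wt B1b cells (edgeR). Highest were the integrin subunit genes Itgal at 4.04 (edgeR adjusted p = 9.46e-14) and Itga4 at 4.88 (edgeR adjusted p = 7.79e-13). Lowest were Fermt2, a kindlin of adherent tissue cells, at -9.23 (edgeR adjusted p = 4.29e-13) and Fyb at -5.18 (edgeR adjusted p = 2.77e-10). Of 20 Ena/VASP and lamellipodial actin genes, 12 were higher and 7 lower in wt B1b cells (edgeR). Enah, a partner of lamellipodin, was lower at -7.44 (edgeR adjusted p = 8.98e-14), while the Ena/VASP genes Evl and Vasp stood at 1.84 and 0.73.

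Summed markers of macrophages and of B cells differed between the genotypes in the B1b libraries. The 15 macrophage and monocyte markers, all with counts in both groups, summed to 137.5 to 271.2 CPM in wt and 335.4 to 380.7 CPM in cre, without overlap, beside the higher Raph1 and lower Rgl1. Of 13 tested, Csf1r, which encodes the CSF-1 receptor of macrophages, passed, at 6.57 to 10 CPM in wt and 14.7 to 18.8 in cre (log2 fold change 0.99, edgeR adjusted p = 0.0357), and 12 did not. Without wt replicate 1 or 2 or cre replicate 1 or 2, Csf1r no longer passed (edgeR adjusted p = 0.181, 0.0781, 0.11 and 0.124), nor did it with limma-voom (adjusted p = 0.0551) or in the fit of all 16 libraries (edgeR adjusted p = 0.334). The 10 B cell markers summed to 10315.5 to 10891.1 CPM in wt and 9651.3 to 9915.7 in cre, without overlap, and 1 of 10 passed, as lower. The 5 B-2 cell markers summed to 2322.6 to 2449.9 CPM in wt and 2041.1 to 2159.0 in cre, also without overlap, and 0 of 5 passed (edgeR). The 10 pan-leukocyte markers summed to 7137.2 to 7226.2 CPM in wt and 6947.6 to 7108.7 in cre, again without overlap. The 8 B-1 cell markers summed to 11270.3 to 13584.2 CPM in wt and 11432.1 to 12664.3 in cre, which overlap. Of single genes, 17.9% had B1b groups that did not overlap. Of 6 plasma cell markers tested, Jchain, the joining chain of secreted IgM, passed as higher, at 2.2 to 6.67 CPM in wt and 13 to 18.1 in cre (log2 fold change 1.78, edgeR adjusted p = 0.00678), though not in the fit of all 16 libraries (edgeR adjusted p = 0.983). The part of these cell types in the values of Raph1 and Rgl1 was not tested. T and NK cell markers summed to 21.3 to 21.7 CPM in wt and 16.3 to 22.8 in cre.

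In whole aorta, fewer cells of a type and less RNA per cell cannot be told apart. Heart muscle markers summed to 611.6 to 2786.8 CPM in wt and 738.4 to 6960.4 in cre aortas, with a median log2 fold change of 2.34. Skeletal muscle markers summed to 20.8 to 178.3 CPM in wt and 80.1 to 871.6 in cre (median 3.01), and adipocyte markers to 638.5 to 3876.4 and 1292.3 to 4499.8 (median 0.71). Schwann cell and neuron markers summed to 110.3 to 192.9 CPM in wt and 124.1 to 1253.1 in cre (median 0.84), the highest in cre replicate 4. None of these 4 lists had a gene past the threshold (edgeR), and 1 of 8 B cell markers passed, as higher in cre. The part of these cell types in the aortic values was not tested. Across the 10 aortas, each of the 7 genes was set against the mean log2 CPM of 10 leukocyte markers and of 8 smooth muscle markers, 14 relations in all, with 100000 two-sided permutations and Benjamini-Hochberg adjustment. Apbb1ip followed the leukocyte markers (Pearson r 0.83, permutation p = 0.0037, adjusted 0.033; Spearman rho 0.87, permutation p = 0.002, adjusted 0.028), with r 0.81 without the 2 aortas farthest from the median. Rgl1 ran opposite to the smooth muscle markers (r -0.81, permutation p = 0.0046, adjusted 0.033; rho -0.75, permutation p = 0.017, adjusted 0.12), with r -0.87 without the 2 farthest.

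With any 1 aorta left out, r ran from 0.78 to 0.92 for Apbb1ip and from -0.92 to -0.70 for Rgl1, and the adjusted p passed in 3 of 10 such sets for each. By Pearson r, no relation at all passed without wt replicate 2, 3, 4 or 5 or cre replicate 1, 4 or 5. With values centred on the mean of each genotype and permuted within it, a check added after seeing the data, Apbb1ip had r 0.87 (permutation p = 0.0011, adjusted 0.015) and rho 0.88 (permutation p = 0.0039, adjusted 0.028). Rgl1 then had r -0.79 (permutation p = 0.015, adjusted 0.1) and rho -0.87 (permutation p = 0.004, adjusted 0.028). Without centring, Raph1 had r 0.25 with the leukocyte and 0.10 with the smooth muscle markers, and neither passed (permutation p = 0.49 and 0.77). Its values were unstable. They were 0.41 and 0.70 without the 2 aortas farthest from the median, and 0.71 and -0.12 without the 2 under 2000000 counts. Centred within genotype they were 0.44 and -0.57 (permutation p = 0.25 and 0.15).

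**Figure D5:**
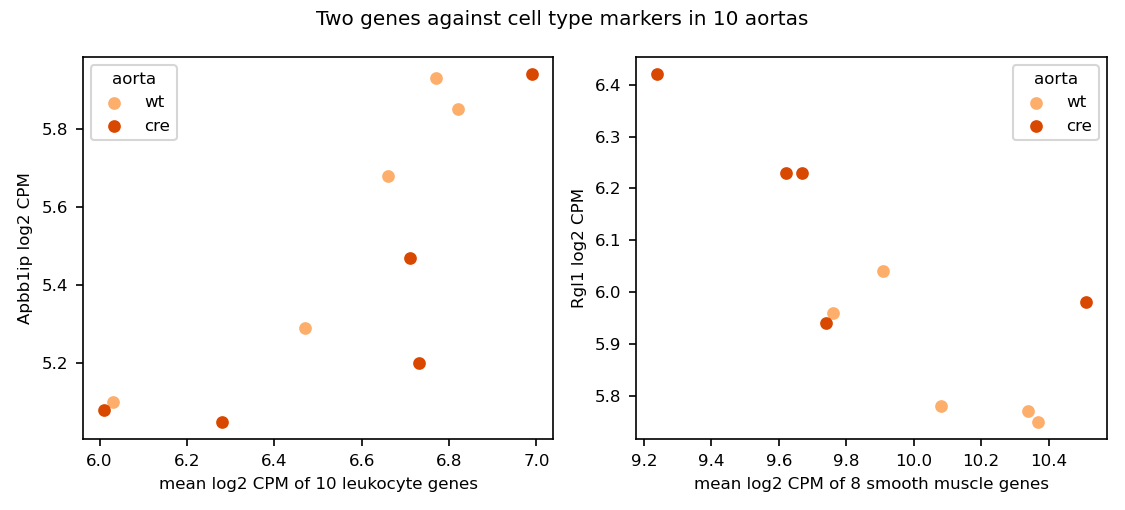
Log2 CPM of Apbb1ip against the mean log2 CPM of 10 leukocyte markers, and of Rgl1 against that of 8 smooth muscle markers, in 10 aortas with wt and cre shown apart. Pearson r is 0.83 in the first panel and -0.81 in the second.

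Genes with patterns most like those of Rgl1 and Raph1 were found as a description, by the root mean square difference of log2 CPM centred within each tissue, over 16 libraries and 9123 genes. For Rgl1, whose own root mean square was 0.41, the nearest were Enc1 at 0.18, Lmo2 at 0.25 and Clip2 at 0.25. Their log2 fold changes were -0.90, -0.72 and -0.78 in B1b cells and 0.26, 0.30 and 0.05 in aorta. For Raph1, with 0.35, they were Ccdc71l at 0.21, Syncrip at 0.22 and Wasl at 0.22, with log2 fold changes of 0.39, 0.42 and 0.45 in B1b cells and -0.43, -0.26 and -0.22 in aorta.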

How the data were processed

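RNA was sequenced from 6 B1b and 10 aorta libraries made with the KAPA mRNA Hyperprep kit, per the labels' protocols. Per the submitters' processing notes, tools were CASAVA 1.8.2 and STAR 2.5.2b on mm10. The sources used here do not give the counter, annotation or strand setting. The authors deposited raw read counts per RefSeq transcript. Of 35745 transcripts, 35440 were named from RefSeq, 188 from GENCODE and 117 not at all. The transcript of highest total was kept for each gene, giving 24562 entries. Replicates of a group differed beyond sampling noise (chi-square per degree of freedom 5.43 to 47.82).

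Counts were tested with edgeR 4.0.16 (TMM, filterByExpr, robust quasi-likelihood, Benjamini-Hochberg over all genes) in R 4.3.3. B1b cells and aortas were fitted apart, and tissue contrasts came from 1 fit of 4 groups. DESeq2 1.42.0 and limma 3.58.1 were alternatives. CPM used 1 TMM scaling of 16 libraries, and per kb values used GENCODE transcript lengths. For Rgl1 that length is of another transcript than the counted one. Correlations used log2 CPM, prior count 2, and scipy 1.17.1. Figures used matplotlib 3.10.9 in Python 3.11.15. The fits were tested on simulated counts. RefSeq promoters covered all 7 genes. Members and lists were chosen with earlier results of these data known. Partner genes were named by smallest p in a list, or by largest fold between tissues. Some genes are not reported here.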

Additional observations from a re-analysis of the deposited data

Results flagged for a closer look

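Ralgds in wt aorta replicate 4 stood at 70.9 CPM, far above the other 4 wt aortas, which ran from 48 to 52.3 CPM. Chance gives such a sample in about 1 of 20 groups, and 14 groups were tested in this way. No cause was tested.

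The genotype difference of Rgl1 in B1b cells minus that in aorta was -1.52 on the log2 scale, and that of Raph1 was 1.30. Both genes were chosen by the B1b contrast that these values contain, so the differences are descriptions. Over the alternative settings that of Rgl1 ran from -1.63 to -1.35. Within B1b cells, the difference of Rgl1 ran from -1.30 to -1.03 and that of Raph1 from 0.75 to 0.98 over all settings.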

How the results depend on the processing

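No paired analysis was possible because the replicate numbers only follow the order of the samples and pair nothing. Genes past the threshold in B1b cells numbered 83, against 196 with DESeq2, 327 with no filter on low counts, 139 with all transcripts tested and 0 in the fit of all 16 libraries, and 35 to 103 with a library left out. In aorta they numbered 2, against 204 with DESeq2, 1 with limma-voom, 1 with the transcript of lowest count, 4 with all transcripts, 92 without the 2 shallow aortas and 47 in the fit of all 16 libraries, and 0 to 14 with a library left out. For the interaction they numbered 3, against 173 with DESeq2, 6 with all transcripts, 17 without the shallow aortas and 1 to 7 with a library left out. Between tissues, all transcripts gave 17790 in wt and 18562 in cre in place of 10878 and 11334. Of the 7 genes, 1 passed in aorta with DESeq2 in place of 0, namely Raph1. Relations with markers past the threshold by Pearson r numbered 2, against 1 without the shallow aortas. Within genotype, a check chosen after seeing the data, they numbered 1, and with an aorta left out 0 to 2. By Spearman rho 1 relation passed, and within genotype those of Apbb1ip and Rgl1 both did (adjusted permutation p = 0.028 each). Rgl2 in aorta changed sign, from -0.21 to 0.12 with a library left out. RLE scaling moved the tissue median of all genes from -0.12 to -0.28 in wt and from -0.21 to -0.33 in cre, and Rgl2 in wt then passed (-0.61, edgeR adjusted p = 0.0438). In the 3 tested comparisons, single genes kept their side and direction in 432 values, came to pass in 8, ceased to in 3 and changed sign in 5. In the B1b and interaction values, which have no test, the sign turned in 8 of 252, for Ralb, Rala and Rgl2. Causes were not tested.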
